A study of Homo sapiens with 7 samples.

Results

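The genes described here are 9 cell-surface adhesion molecules of a human lung cancer line: the immunoglobulin-type receptors PECAM1, ICAM1, ALCAM and BCAM, the carcinoembryonic antigen family members CEACAM1, CEACAM5 and CEACAM6, the epithelial molecule EPCAM, and the hyaluronan receptor CD44. They were taken by name from the authors' deposited table, in which all 9 had a row among 16522 genes with a test. The set was put together with the values of that table known, and PECAM1 was singled out for its large change. Their fold changes are therefore given as a description of these libraries. RNA came from PC9, an established lung adenocarcinoma line with an activating EGFR mutation. There were 3 libraries of parental cells and 4 of cells in which the receptor tyrosine kinase AXL had been knocked out, the latter split evenly over 2 clones. A clone descends from one sorted cell, no drug treatment is given for either group, and whether same-group libraries represent separate cultures is not stated. Bulk MARS-seq was used, a method that counts tags near the polyadenylated 3′ end of each transcript. Splice forms of one gene that share an end are therefore counted together.

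Adhesion receptors of the immunoglobulin superfamily carry extracellular domains that bind the same molecule on a neighbouring cell, another receptor, or matrix. CEACAM proteins have the same kind of domain, and some are held in the membrane by a lipid anchor in place of a transmembrane segment. EPCAM and CD44 are not immunoglobulin proteins: the first mediates contact between epithelial cells, and the second binds hyaluronan and connects to the actin cortex. Several of the group serve as markers in lung adenocarcinoma, CEACAM5 being the carcinoembryonic antigen measured in serum.

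By the calls of the authors' deposited table, 7 of the 9 genes were higher in knockout than in parental cells (adjusted p below 0.05), 1 was lower and 1 did not pass. As background, 38.0% of all tested genes passed, 19.5% as higher and 18.5% as lower, and because the set was chosen on this contrast nothing is read from the difference. The same shares are the background for the counts in other lists and among neighbouring genes given below. The median log2 fold change was 0.44 for the 9 genes and -0.01 for all tested genes. PECAM1 had the largest change of the set, a 5.06-fold rise, followed by CEACAM5 with a 3.17-fold rise and ALCAM with a 2.42-fold fall. Their 95% intervals lay entirely beyond a 2-fold change, which held for these 3 genes of the 9. Changes of BCAM, CEACAM1, CD44, CEACAM6 and ICAM1 were all increases of between 1.22-fold and 1.56-fold. EPCAM stayed within a few percent of its parental level.

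**Figure D1:**
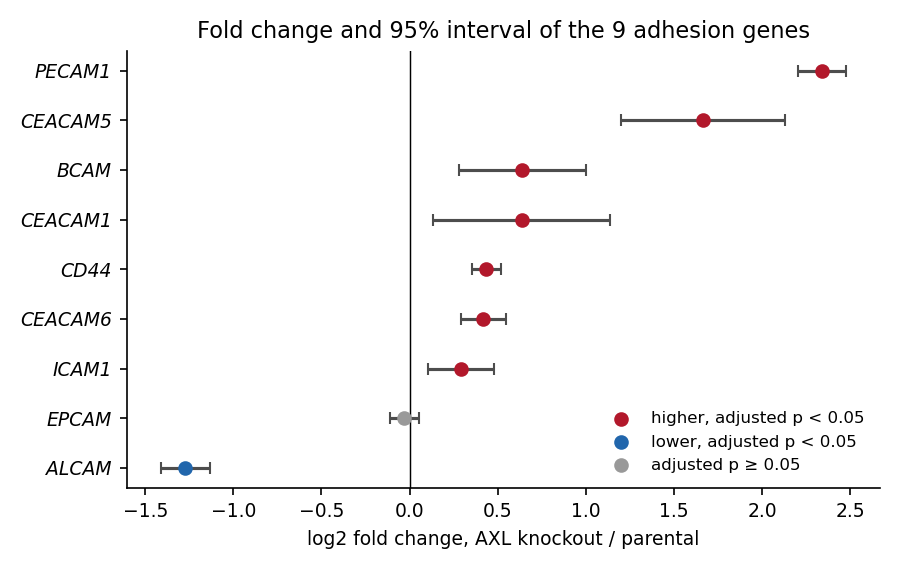
Log2 fold change of AXL knockout over parental cells for the 9 adhesion genes (points) with 95% normal intervals from the authors' standard errors (bars); colour gives the call at an adjusted p under 0.05. PECAM1 (2.34) and CEACAM5 (1.67) lie far to the right, ALCAM (-1.27) is the only gene called lower, and the interval of EPCAM spans 0.

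The table holds 1 row per gene and no value per library, so levels below are group means in normalized counts, implied by the mean over the 7 libraries and the fold change, with the authors' standard error as the measure of spread. Mean normalized counts summed to 12209504, the depth of an average library. All 9 genes had a mean of at least 20, and the least read group, CEACAM1 in parental cells, still held 99.8 reads. The knockout was visible in the target: AXL stood at 1417 in parental and 18.2 in knockout cells in the authors' deposited table. Epithelial identity was plain, with all 11 epithelial markers measured and KRT8 (24512 and 50455) and KRT18 (17826 and 29451) abundant in both groups. Of the 11, 7 were higher and 2 lower, against 19.5% and 18.5% of all tested genes. The lower ones were CDH1 (log2 fold change -0.33 ± 0.06) and GRHL2 (-0.17 ± 0.07). NKX2-1, a lung lineage factor, was near the floor, with a level of 9.47 in parental cells and fewer than 3 reads over the knockout libraries, and SFTPB stood at 117 and 209 without passing the test. Of the 9 lung lineage markers 6 were measured, with 2 higher and 2 lower. The higher ones were ABCA3 (log2 fold change 2.16 ± 0.21) and FOXA1 (0.56 ± 0.06). Among the 3 lung lineage markers with a level of at least 20, 2 were higher and 0 lower. Of 9 fibroblast markers COL1A1 alone was measured, and it fell from 126 to 84.0.

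**Figure D2:**
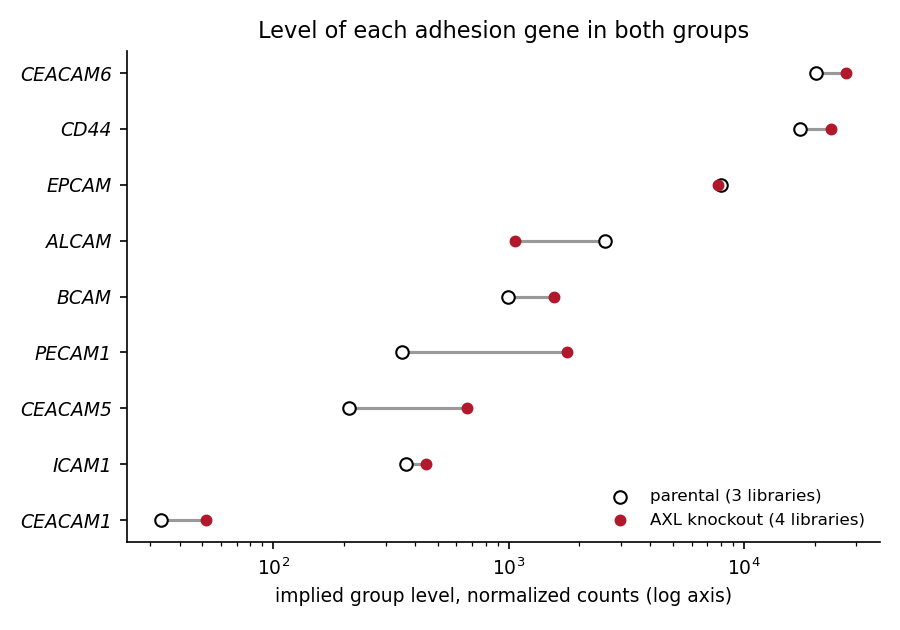
Implied group level of each adhesion gene in parental (open circles, 3 libraries) and AXL knockout cells (red, 4 libraries), in normalized counts on a log axis; the levels carry no spread between libraries. PECAM1 moves from 351 to 1777 and ALCAM from 2575 to 1066, while the EPCAM circles overlap at 7953 and 7789.

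PECAM1 (CD31) is an adhesion receptor best known from endothelial cells, platelets and leukocytes, where it binds itself across cell contacts and recruits the phosphatase PTPN11 through inhibitory tyrosine motifs in its tail. It was already present in parental PC9 cells. In the authors' deposited table PECAM1 (ENSG00000261371; GRCh38 chromosome 17, 64319415 to 64413776, minus strand) went from 351 to 1777 normalized counts, a log2 fold change of 2.34 ± 0.07 (standard error) and a fold of 5.06 with a 95% interval of 4.61 to 5.55. Parental cells held 1054 reads of it over their 3 libraries, so the change does not start from the floor. Of 3659 genes whose mean lay within 2-fold of that of PECAM1, 14 had an absolute fold change at least as large and 7 were raised at least as much. The median absolute log2 fold change of these genes was 0.17. By the size of the statistic PECAM1 ranked 11th of all 16522 genes.

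Other endothelial genes were not called with PECAM1. Of the 20 endothelial markers listed, 8 were measured in the authors' deposited table. None passed in either direction by the authors' Wald test, while 3 were higher and 1 lower at an unadjusted p under 0.05. Summed, they held 1813 counts in parental and 1787 in knockout cells. CDH5, the cadherin of endothelial junctions, stood at 455 and 305 (-0.57 ± 0.25, adjusted p 0.0507). ESAM, a junctional adhesion molecule, had 393 and 392 (0.00 ± 0.09), ENG 536 and 597, and EGFL7 394 and 450. VWF, the clotting factor of endothelial cells and platelets, held 0.976 and 4.87, which is at or close to the floor. Among 17 leukocyte and platelet markers 6 were measured, with 3 higher and 2 lower, and a summed level of 9588 and 4284. That sum was carried by LCP1, an actin bundler that carcinoma cells also express (9432 and 4093). ITGB2 and ITGAM rose from 24.5 to 50.4 and from 20.7 to 34.9, and FCER1G was at 26.2 in parental cells and at 3 reads or fewer in all knockout libraries together. PTPRC, the pan-leukocyte marker, was not analysed here. The part of such cells in the PECAM1 level was not tested, and in bulk RNA more cells with a transcript and more transcript per cell cannot be told apart.

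Of 10 measured phosphatases, kinases and other partners of PECAM1, 2 were higher and none was lower by the authors' Wald test, where 38.0% of all genes were called (3 of the 10 higher and 1 lower at an unadjusted p under 0.05), with a median log2 fold change of 0.06. PTPN11 had 2874 in parental and 2759 in knockout cells (-0.06 ± 0.05) and PTPN6, a related phosphatase, 500.3 and 457 (-0.13 ± 0.08). INPP5D, a lipid phosphatase mostly studied in blood cells, rose from 16.8 to 82.6 in the authors' deposited table (2.29 ± 0.27). The kinase FYN rose by 0.18 ± 0.07 on the log2 scale. CD177, a partner of PECAM1 on neutrophils, stood at 74.8 and 90.6 without passing.

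The genes around PECAM1 did not share its size of change. Within 500 kb, 11 genes with a level of at least 20 were measured, 2 of them higher and 5 lower, with a median log2 fold change of -0.24 (-0.05 over the 7 genes within 250 kb). In the authors' deposited table the nearest of them, MILR1 at 35.3 kb, had 94.1 counts in both groups (0.00 ± 0.17). TEX2, at 56.1 kb, rose from 682 to 979 (0.52 ± 0.07) and SMARCD2, a chromatin remodelling subunit, from 1663 to 2235 (0.43 ± 0.05). SMURF2, a ubiquitin ligase, fell by 0.43 ± 0.06 and POLG2 by 0.35 ± 0.15 on the log2 scale. With a single contrast, likeness to PECAM1 can be measured only by the fold change. The 5 genes nearest to it among those of similar mean were BARX2 (2.25 ± 0.11), CTSH (2.48 ± 0.08), ASS1 (2.14 ± 0.13), PLAT (2.13 ± 0.06) and AMOT (2.60 ± 0.09).

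**Figure D3:**
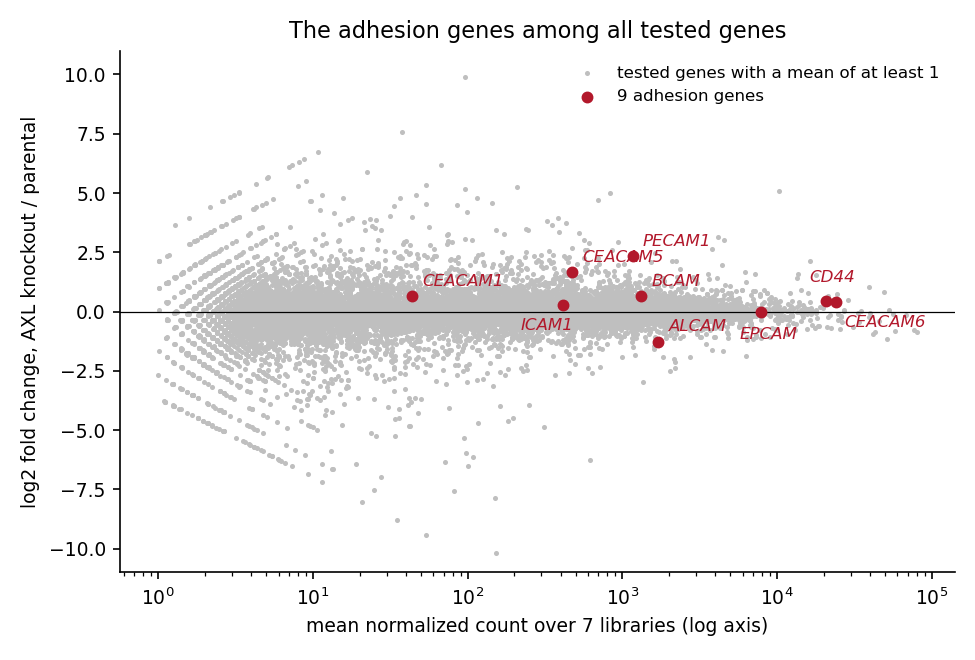
Log2 fold change of AXL knockout over parental cells against the mean normalized count (log axis) for tested genes with a mean of at least 1 (grey) and the 9 adhesion genes (red). PECAM1, CEACAM5 and ALCAM stand outside the bulk of genes of their mean, and the other 6 lie in or close to it.

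CEACAM5, CEACAM6 and CEACAM1 are members of one family on the long arm of chromosome 19, the arm that also carries AXL. CEACAM5 and CEACAM6 are lipid-anchored and bind each other and bacteria at epithelial surfaces. CEACAM1 is a transmembrane protein with isoforms that carry inhibitory tyrosine motifs like those of PECAM1. The 250 bases before the RefSeq start of each of these genes are shown because all 3 genes were called in the same direction and their upstream sequences are related. Sequences are from RefSeq (GRCh38.p14), written 5′ to 3′ on the strand of the gene, with the E-box CACGTG in capitals where it occurs. They are chr19:41708376-41708625 on the plus strand, chr19:41755280-41755529 on the plus strand and chr19:42528482-42528731 on the minus strand. The gene bounds printed for all genes are those of GENCODE, a different annotation: the CEACAM6 and CEACAM1 windows lie inside these bounds, and the CEACAM5 window reaches into them.
CEACAM5: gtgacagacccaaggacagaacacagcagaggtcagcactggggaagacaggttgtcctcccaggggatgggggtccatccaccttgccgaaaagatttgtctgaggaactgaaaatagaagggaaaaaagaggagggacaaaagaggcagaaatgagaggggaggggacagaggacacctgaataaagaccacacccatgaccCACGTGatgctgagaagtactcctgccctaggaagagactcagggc
CEACAM6: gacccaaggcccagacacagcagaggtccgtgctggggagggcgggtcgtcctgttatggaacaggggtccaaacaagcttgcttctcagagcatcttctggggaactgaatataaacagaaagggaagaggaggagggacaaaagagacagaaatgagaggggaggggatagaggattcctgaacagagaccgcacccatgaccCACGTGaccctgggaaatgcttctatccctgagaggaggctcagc
CEACAM1: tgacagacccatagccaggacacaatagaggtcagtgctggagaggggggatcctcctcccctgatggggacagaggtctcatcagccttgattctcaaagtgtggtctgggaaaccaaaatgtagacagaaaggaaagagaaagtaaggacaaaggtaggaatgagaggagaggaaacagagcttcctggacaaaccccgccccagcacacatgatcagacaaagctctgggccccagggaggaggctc
Aligned end to end, the CEACAM5 and CEACAM6 stretches were identical at 194 of 260 alignment columns (74.6%), CEACAM1 and CEACAM6 at 180 of 264 (68.2%), and CEACAM1 and CEACAM5 at 178 of 269 (66.2%). The same alignment of these stretches with that of ICAM1, an unrelated member on the same chromosome, gave 49.7% to 50.7%. The E-box begins 46 bases before the RefSeq start of CEACAM5 and 45 bases before that of CEACAM6, and those letters are not in the CEACAM1 window. The motif, which reads the same on both strands, occurs in 6.34% of 35116 windows of the same length in the table. Upstream windows were matched for 7 of the 9 genes, without PECAM1 and EPCAM.

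CEACAM5 had the second largest rise of the set. By the authors' deposited table CEACAM5 (ENSG00000105388; GRCh38 chromosome 19, 41708585 to 41729798) went from 210.0 to 666 normalized counts, with a log2 fold change of 1.67 ± 0.24 and a fold of 3.17 (95% interval 2.29 to 4.39). CEACAM6 (ENSG00000086548; 41750977 to 41772208), whose annotated gene begins 21.2 kb further on, stood at 20216 and 27015, for a log2 fold change of 0.42 ± 0.07 and a fold of 1.34 (1.22 to 1.46). The intervals of this gene pair did not overlap, although the difference between them was not tested. CEACAM1 (ENSG00000079385; 42507304 to 42561234, minus strand) had few reads, with 33.3 in parental and 51.8 in knockout cells (0.64 ± 0.26, fold interval 1.10 to 2.20). Its adjusted p of 0.0358 became 0.154 when read against a t distribution. Like CEACAM6, CEACAM1 did not pass a test for a log2 fold change beyond 0.5 in size. The 3 genes summed to 20459 counts in parental and 27733 in knockout cells, nearly all of them from CEACAM6.

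Besides the 3 above, 6 of 19 listed CEACAM and PSG genes were measured in the authors' deposited table, and only CEACAM19 had a level of at least 20. It fell from 164 to 126 (-0.38 ± 0.14), the opposite direction to the 3 others. CEACAM3, a receptor of granulocytes, stood at 6.17 and 10.9 without passing, and CEACAM7 at 0.977 and 4.29, also without passing. Of the pregnancy-specific glycoproteins, PSG1 passed as higher from 3 parental reads or fewer (0.346 and 5.53), and PSG5 and PSG9 did not pass. Sharing of reads between family members was checked on the last 500 bases of the longest annotated protein-coding transcript of each adhesion gene. For 7 of the 9 genes, none of the 451 stretches of 50 bases occurred in a transcript of another gene, and for CEACAM5 and EPCAM 2 and 3 of them did, in no case in another adhesion gene of the set. How the authors treated reads with several matches is not given in the sources used here.

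CEACAM5, CEACAM6 and CEACAM1 lie between 447 and 1246 kb beyond AXL, the edited gene. From AXL to CEACAM1 there were 21 other genes with a level of at least 20 in the authors' deposited table, of which 4 were higher, 4 lower and 13 did not pass. Their median log2 fold change was 0.01, and the values ran from -0.45 for TGFB1 to 0.65 for RABAC1. HNRNPUL1, which starts 0.73 kb past the end of AXL, had 5900 and 6481 counts (0.14 ± 0.04). ARHGEF1, between CEACAM6 and CEACAM1, fell by 0.43 ± 0.06 on the log2 scale. The fold change of CEACAM5 was higher than that of every one of the 21, and those of CEACAM1 and CEACAM6 were within their range.

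**Figure D4:**
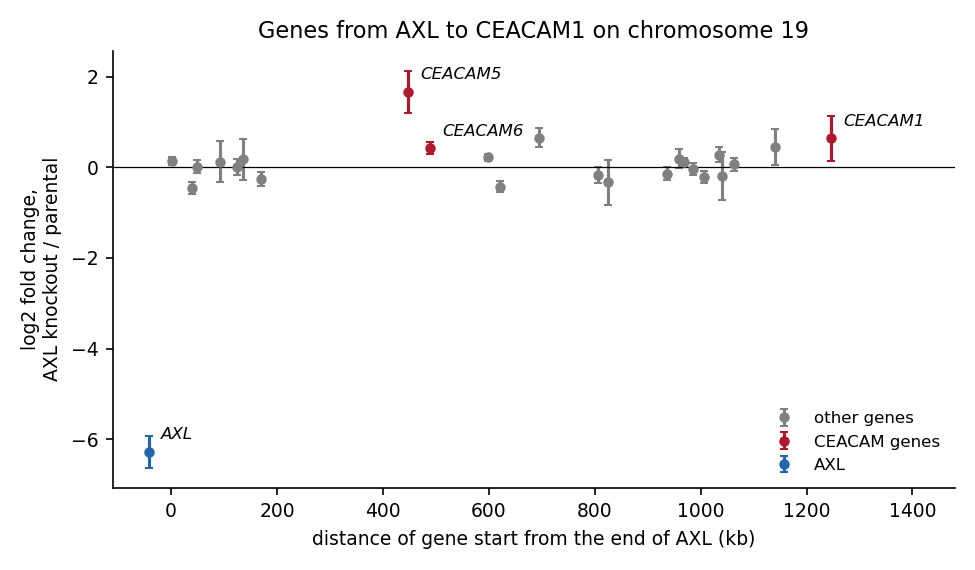
Log2 fold change with 95% interval for genes with a level of at least 20 from AXL to CEACAM1, plotted by the distance of the gene start from the end of AXL in kb. AXL lies at -6.28, the 21 other genes between -0.45 and 0.65, and CEACAM5 at 1.67.

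ICAM1 is the endothelial and epithelial ligand of the leukocyte integrins ITGAL-ITGB2 and ITGAM-ITGB2, and it is a classical target of NF-kB. In the authors' deposited table ICAM1 (ENSG00000090339; GRCh38 chromosome 19, 10270835 to 10286615) went from 365 to 447 normalized counts, a log2 fold change of 0.29 ± 0.10 and a fold of 1.22 (95% interval 1.07 to 1.39). Of 4544 genes with a similar mean, 1573 had a larger fold change in size. Read against a t distribution (5 degrees of freedom), its adjusted p became 0.0988. With a minimum mean count of 20 it was 0.00652 by the Wald test. ICAM1 did not pass a test for a log2 fold change beyond 0.5 in size, a different question. Neither did CEACAM6 and CD44. The 250 bases before its RefSeq start (chr19:10270870-10271119, plus strand), which lie inside the GENCODE bounds of the gene, are shown for the kappaB-type site GGAAATTCC, in capitals, through which the gene is known to respond to NF-kB.
ICAM1: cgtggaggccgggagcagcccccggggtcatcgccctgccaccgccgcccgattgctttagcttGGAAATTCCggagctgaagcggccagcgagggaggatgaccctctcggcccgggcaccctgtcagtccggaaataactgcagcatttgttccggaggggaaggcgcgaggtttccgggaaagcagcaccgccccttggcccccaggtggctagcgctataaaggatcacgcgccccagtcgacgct
The site begins 186 bases before the RefSeq start, and the same letters, on either strand, occur in 0.413% of the 35116 windows. None of the other adhesion genes with a window held them.

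Known targets and subunits of NF-kB went both ways beside ICAM1. Of 20 measured, 3 were higher and 8 lower in the authors' deposited table, with a median log2 fold change of -0.14. At an unadjusted p under 0.05 by the authors' Wald test, the counts were 4 and 10. Over all tested genes, 19.5% were higher and 18.5% lower. Among the 16 listed genes with a level of at least 20, 3 were higher and 6 lower, and the median was 0.01. The feedback inhibitor NFKBIA rose from 551 to 842 (0.61 ± 0.07) and TNFAIP2 from 7782 to 11182 (0.52 ± 0.06). TNFAIP3, the deubiquitinase that ends NF-kB signalling, fell from 2965 to 1767 (-0.75 ± 0.06), and the cytokine IL1B from 124 to 35.7 (-1.79 ± 0.21). RELA, the subunit that activates transcription, was lower by a smaller amount (2329 and 1992). The leukocyte receptors of ICAM1 were at low levels, since of 5 integrin subunits the measured pair was ITGB2 and ITGAM at 50.4 counts or fewer.

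ALCAM (CD166) binds itself between epithelial cells and binds CD6 on T cells. It was the only gene of the set called lower. ALCAM (ENSG00000170017; GRCh38 chromosome 3, 105366909 to 105576900) went, in the authors' deposited table, from 2575 to 1066 normalized counts, a log2 fold change of -1.27 ± 0.07 and a fall of 2.42-fold (95% interval 2.19 to 2.66). Of 2813 genes of similar mean, 45 changed at least as much in either direction. The single gene with a level of at least 20 within 500 kb of it, CBLB, a ubiquitin ligase, was lower as well, at 157 and 107 (-0.56 ± 0.14).

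BCAM, the Lutheran blood group protein, is a receptor for laminins that contain LAMA5. BCAM (ENSG00000187244; GRCh38 chromosome 19, 44809059 to 44821421) went, in the authors' deposited table, from 997 to 1554 normalized counts, a log2 fold change of 0.64 ± 0.18 and a fold of 1.56 (95% interval 1.21 to 2.00). The interval is wide for a gene of this depth, and the adjusted p read against a t distribution became 0.0706. With a minimum mean count of 20 it was 0.00155 by the Wald test. BCAM did not pass a test for a log2 fold change beyond 0.5 in size. Its ligand moved the other way: LAMA5 fell from 3146 to 2425 (-0.38 ± 0.07), and so did LAMB1 (-0.99 ± 0.08) and LAMC1 (-0.32 ± 0.06), chains that assemble with LAMA5 into trimers. LAMB2 did not pass, at 493 and 539. Around BCAM, 5 of 21 genes within 500 kb were higher and 5 lower (median -0.10), TRAPPC6A having the largest change (0.87 ± 0.11).

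Other immunoglobulin-type adhesion genes were called in both directions. Of 29 measured, 8 were higher and 8 lower in the authors' deposited table (13 and 8 at an unadjusted p under 0.05), with a median log2 fold change of 0.10. The shares over all tested genes were 19.5% and 18.5%. CD58, the ligand of the T-cell receptor CD2, rose from 708 to 1310 (0.89 ± 0.07) and BSG, a chaperone of lactate transporters, from 7657 to 10282 (0.43 ± 0.04). CD47, the signal against phagocytosis, fell from 1470 to 916 (-0.68 ± 0.06), and NRCAM, a neuronal adhesion molecule, from 666 to 292 (-1.19 ± 0.11). L1CAM, also known from neurons, rose from 5.17 to 42.0 (3.02 ± 0.44), with 15.5 reads in parental cells. CNTN1 fell from 25.8 to 2.54 (-3.34 ± 0.59), with 10.2 reads in knockout cells. ICAM5 and ICAM2, relatives of ICAM1, did not pass, with ICAM5 at 65.6 and 80.2 and ICAM2 near the floor at 1.52 and 0.293.

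EPCAM, which mediates contact between epithelial cells and is cleaved at the membrane to release a signalling fragment, was the gene of the set that did not pass. In the authors' deposited table EPCAM (ENSG00000119888; GRCh38 chromosome 2, 47345158 to 47387601) had 7953 normalized counts in parental and 7789 in knockout cells. Its log2 fold change of -0.03 ± 0.04 gives a ratio of 0.979 with a 95% interval of 0.925 to 1.04. Changes larger than these bounds therefore lie outside the interval of this gene. Of its 11 listed partners measured, 8 were higher and 2 lower (median log2 fold change 0.30), against 38.0% of all genes called and 65.6% of genes with a mean similar to that of EPCAM. CD9, a tetraspanin that associates with EPCAM, rose from 1665 to 5002 (1.59 ± 0.07). The membrane protease ST14 (matriptase) was higher by 0.75 ± 0.04 on the log2 scale. CTNNB1, which carries the signal of the cleaved EPCAM tail, fell from 4235 to 3248 (-0.38 ± 0.05), and LEF1, its partner in the nucleus, fell from 99.3 to 31.0 (-1.68 ± 0.22).

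Proteases that shed or cleave EPCAM, CD44, ALCAM and ICAM1 also went in both directions. Of 16 measured, 7 were higher and 4 lower in the authors' deposited table, with a median of 0.10. Over all tested genes, 19.5% were higher and 18.5% lower. The matrix proteases MMP14, which cuts CD44, and MMP9, which docks on it, fell from 259 to 10.1 (-4.68 ± 0.26) and from 76.2 to 2.02 (-5.24 ± 0.56). ADAM8 fell from 1031 to 415 (-1.31 ± 0.08) and the beta-secretase BACE1 rose from 120 to 305 (1.35 ± 0.13). Changes of the general sheddases ADAM10 (0.35 ± 0.06) and ADAM17 (0.24 ± 0.07) were small increases.

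CD44 binds hyaluronan outside the cell and the linker proteins EZR, RDX and MSN inside it. CD44 (ENSG00000026508; GRCh38 chromosome 11, 35138870 to 35232402) went, in the authors' deposited table, from 17259.7 to 23356 normalized counts, a log2 fold change of 0.44 ± 0.04 and a fold of 1.35 (95% interval 1.28 to 1.43). Its standard error was the smallest of the 9 genes. The annotation lists 39 transcripts of CD44. Their ends were not compared, and only values for the whole gene were available, so the standard and variant forms were not told apart. ESRP1, a splicing factor that promotes the variant exons, rose from 2300 to 2923 (0.35 ± 0.05), and ESRP2 did not pass at 881 and 806.

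The linkers of CD44 to actin parted. RDX, radixin, rose from 2664 to 5077 (0.93 ± 0.04) and MSN, moesin, fell from 11467 to 5233 (-1.13 ± 0.06), while EZR, ezrin, was slightly higher at 17675 and 20121 (0.19 ± 0.06) in the authors' deposited table. Over the 24 measured partners of CD44, 4 were higher and 9 lower (median log2 fold change -0.11), against 19.5% and 18.5% of all tested genes. HAS3, a hyaluronan synthase, fell from 1611 to 838 (-0.94 ± 0.06) and CEMIP2, which degrades hyaluronan at the cell surface, from 895 to 512 (-0.81 ± 0.08). SPP1, osteopontin, a secreted ligand of CD44, had 724 and 490 and a wide standard error (-0.56 ± 0.34), without passing.

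Beside genes of similar mean, the 9 genes differed in the standard error of their fold change. The standard error of each gene in the authors' deposited table was set against genes with a mean within 2-fold of its own. PECAM1, ICAM1, ALCAM, CEACAM1, EPCAM and CD44 were between 0.865 and 1.16 times the median of such genes. CEACAM6 was at 1.41 times. CEACAM5 and BCAM stood apart at 2.77 and 2.84 times, larger than 99.6% and 99.8% of genes of similar mean. Removing the part that counting alone gives leaves an implied coefficient of variation between libraries of a group of 20.9% for CEACAM5 and 16.4% for BCAM, against medians of 6.26% and 4.998% for genes of similar mean. For PECAM1 it was 4.51%. CEACAM1, at 16.9%, was close to the 16.3% usual for its low count. Whether the spread of CEACAM5 and BCAM lies between the 2 clones, within a clone or among the parental libraries was not analysed here.

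**Figure D5:**
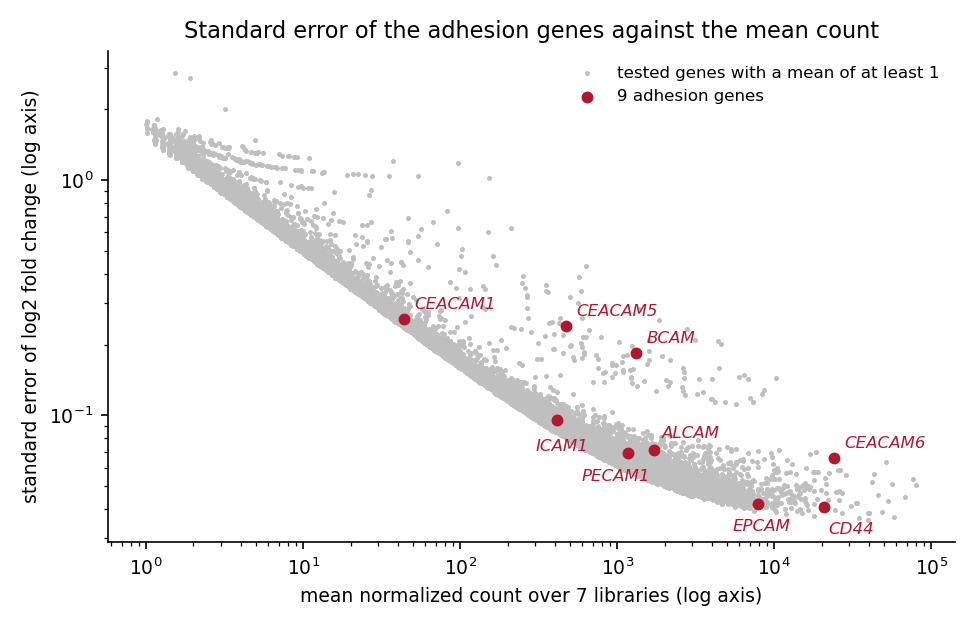
Standard error of the log2 fold change against the mean normalized count, both on log axes, for tested genes with a mean of at least 1 (grey) and the 9 adhesion genes (red). CEACAM5 (0.24) and BCAM (0.18) lie far above the band of genes of their mean, CEACAM6 (0.07) at its upper edge, and the others within it.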

How the data were processed

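RNA-seq libraries of 3 parental and 4 AXL knockout samples (2 clones) were grouped by their titles. The analysis rests on one results table. Its columns, per the file headers, are the authors' signal per gene (the mean normalized count), the log2 fold change and standard error, a score (Wald statistic), and the p-value before and after adjustment. The submitters' processing notes name DESeq2. Aligner, counting, molecular identifiers, strand, build and annotation: not given in the sources used here. The deposited score equals fold change over standard error, and Benjamini-Hochberg adjustment over the 16522 tested rows gives the deposited adjusted p. The other 5 of 16527 rows have a mean of 0.

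The planned edgeR fit and per-library alternatives need counts and were not run. The contrast is unnamed in the file. The 68 lowest rows above 0 (mean below 0.6) can each be written as whole reads of 7 step sizes. Of these step sizes, 3 were tied to negative and 4 to positive fold changes. The known group sizes were allowed to guide that assignment, so the split is not independent evidence of direction. Positive was taken as higher in knockout, the reading under which AXL, the edited gene, is lower there (log2 fold change -6.28). Size factors from the 7 step sizes ran from 0.938 to 1.06.

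Group levels follow from mean and fold change with weights 3 and 4. The coefficient of variation was obtained by removing 1/(reads) of each group from the squared standard error, assuming a model with the 2 groups alone. It describes the authors' fitted model and was not observed in the libraries, since no value per library was available. On simulated counts for 12112 genes of this comparison, the median error was 0.0171% for levels and 0.119% for the coefficient. The simulation took the spread of each gene as known. It therefore checks the arithmetic only, and cannot show how well the authors' fit estimated that spread. Intervals are 95% normal intervals. The p-values reflect only the spread among these libraries, which may be partly technical. The knockout comprises 2 clones, so differences arising in a founding cell cannot be told apart from the knockout.

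A table of gene names gave symbols for 16428 of the identifiers, and positions are those of GENCODE 29 (GRCh38), which held 16517. Upstream windows were aligned with Biopython 1.88 (other steps used Python 3.11.15, SciPy 1.17.1 and pandas 2.3.3). A planned comparison of protein sequences was replaced by transcript ends. The members and lists were chosen with earlier results of these data known. Named genes were all 9 members, AXL, every CEACAM gene, up to 4 genes of each list with the smallest p and up to 4 neighbours of each member with the largest change (adjusted p under 0.05, level of at least 20), and the 5 nearest in fold change to PECAM1. Some of these are not reported here. L1CAM, CNTN1, LEF1, EZR, ESRP1, ADAM10, ADAM17, RELA, NKX2-1, PSG1, HNRNPUL1, CDH1 and GRHL2 were named after their values were seen. So were genes that did not pass.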

Additional observations from a re-analysis of the deposited data

How the results depend on the processing

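The alternatives reuse the deposited fold changes, so they do not test the direction of the 9 genes. Their call held for all 9 after centring and with a minimum mean count of 20, and for 8 at an adjusted p under 0.01, where CEACAM1 (log2 fold change 0.64, adjusted p 0.0358) no longer passed. A t distribution with 5 degrees of freedom left 4 of the 7 higher genes, without ICAM1 (adjusted p 0.0988), BCAM (0.0706) and CEACAM1 (0.154), and 1862 higher and 1614 lower genes in the whole table. A 2-fold minimum left 2 higher members, PECAM1 and CEACAM5, with 734 higher and 767 lower genes in all. Testing for a log2 fold change beyond 0.5 in size left 2 higher members likewise, with 733 and 695 genes in all, against 3228 and 3053 in the table as deposited. Fewer calls follow from how these settings are built. ALCAM stayed called as lower in each.

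Leaving out each replicate was not run, since the table holds no value per library. No paired analysis was possible because the columns of the table carry no replicate numbers. Depth limits CEACAM1 most, with 99.8 parental reads.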
